A study of Mus musculus with 18 samples.

Results

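The insulin-like growth factor (IGF) axis was followed as 10 genes in mouse lung fibroblasts that had either entered a collagen gel or stayed on top of it. They are the ligands Igf1 and Igf2, the receptors Igf1r and Igf2r, and the binding proteins Igfbp2, Igfbp3, Igfbp4, Igfbp5, Igfbp6 and Igfbp7. These 10 were taken by gene symbol from 19938 genes measured by a probe set of their own, and each was read by 1 probe set. The group was chosen by the log2 ratio of Igf1 between fractions, which was negative at both times, so the Igf1 values between fractions are given as a description without a test.

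IGF1 and IGF2 are secreted peptides that activate the receptor tyrosine kinase IGF1R, which signals through insulin receptor substrates to PI3K, AKT and mTOR and through adaptors to RAS. IGF2R, the cation-independent mannose 6-phosphate receptor, binds IGF2 and carries it to lysosomes, and it also sorts lysosomal enzymes. The binding proteins hold IGFs in the extracellular space, can block or prolong their action, and are cut by dedicated proteases. In lung, mesenchymal cells are a known source of IGF1.

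The cells were of MLg 2908, an established line from newborn lung of wild-type ddY mice, sex not determined, so every sample came from the same line. RNA came from an invading and a non-invading fraction, separated 72 hours (4 samples each) or 96 hours (5 samples each) after plating, and was hybridized to whole-transcript arrays of the Affymetrix type Mouse Gene 1.0 ST. The treatment entry shared by all 18 samples names TGFB1 beside the collagen assay, whereas the titles name no added factor and the study marks the cells on these arrays as untreated. The titles call the replicates biological, and the study describes every array as an experiment of its own. It also reports a paired test for array values of some receptors, without saying what was paired. Signals are log2 values summarized by RMA, a difference of 1 between groups is a doubling, and levels are compared between samples for 1 gene at a time.

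Replicates of a group correlated between 0.991 and 0.996 over all probe sets (Pearson's r). Of 10 fibroblast markers, Thy1 ran from 5.60 to 6.46, no higher than the lowest array median (the medians were 6.46 to 6.65), and the other 9 were at 11.6 or more in every sample. The mean signal of the fibroblast list was between 11.80 and 11.98 in invading and between 11.87 and 12.06 in non-invading samples. Macrophage and leukocyte markers averaged 5.76 to 5.98 and 5.60 to 5.89, epithelial markers 5.82 to 6.06 and 5.64 to 5.92, and endothelial markers 5.38 to 5.57 and 5.22 to 5.46, in the same order of fractions. Ptprc, Epcam, Pecam1, Lyz2 and Cdh1 were below every array median (at most 5.58, 5.80, 5.79, 6.01 and 6.43). In all samples, however, Cd14 (7.24 to 8.585) and Krt8 (7.07 to 8.05) were above every array median, and Cd68 ran from 6.56 to 7.78. At 96 hours the invading fraction was higher in Cd68, Cd14 and Lyz2 by 0.56, 0.42 and 0.41 on the log2 scale (limma adjusted p = 0.00334, 0.0582 and 0.0327). That difference of Cd14 did not pass without the invading replicates 4 or 5 or the non-invading replicates 1 or 2 (0.30 to 0.41, limma adjusted p from 0.103 to 0.126). Krt8 was higher in the invading fraction by 0.53 and 0.32 at 72 and 96 hours (limma adjusted p = 0.0207 and 0.0274). Cd14 was also higher at 72 hours, by 0.29 (limma adjusted p = 0.0207, but 0.142 when all 18 samples were fitted together). Epcam and Cdh1 were higher at 96 hours by 0.18 and 0.15 (limma adjusted p = 0.0833 and 0.094), which made 3 of 7 epithelial markers. Epcam did not pass without the invading replicates 2, 4 or 5 or the non-invading replicates 3, 4 or 5 (0.15 to 0.19, limma adjusted p from 0.107 to 0.180), nor Cdh1 without the invading replicates 1, 4 or 5, the non-invading replicates 1, 3 or 5 or replicate 1 of both fractions (0.11 to 0.16, limma adjusted p from 0.113 to 0.195). At 72 hours Epcam and Cd68 did not pass with all samples of that time. Epcam did so with quantile normalization repeated or every array centred on its median (0.26 and 0.27, limma adjusted p = 0.0425 and 0.0421). It also passed in 1 fit over all 18 samples or without the invading replicate 2 (limma adjusted p = 0.0991 and 0.0898). Cd68 passed without the invading replicate 3 (0.35, limma adjusted p = 0.0867). Of the fibroblast markers, 3 of 10 were lower at each time: Col1a1 at -0.25 and -0.24, Col1a2 at -0.20 at both times and Col3a1 at -0.34 and -0.35 (limma adjusted p = 0.060, 0.020, 0.0591, 0.0294, 0.0134 and 0.0071). Pdgfrb was higher at 72 hours by 0.27 (limma adjusted p = 0.0376). Col1a1 did not pass at either time with every array centred on its median (-0.17 and -0.12, limma adjusted p = 0.202 and 0.163), nor at 72 hours without the non-invading replicates 1, 2 or 4 (-0.22 to -0.25, limma adjusted p from 0.111 to 0.121). Among all genes, 13% passed as higher and 13.5% as lower at 72 hours, and 16.7% and 14.7% at 96 hours. Nothing is read from the counts of markers beside these shares. The part of these markers in the results below was not tested.

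Replicate 1 of 96 hours stood apart in both fractions. In it, 14 genes were more than 1 log2 unit above the mean of the other 4 replicates in both fractions and 1 gene was below by as much, whereas no gene was for the 4 other replicate numbers of 96 hours, and 0 to 6 were at 72 hours. Igf2 had the greatest shift of all 19938 genes, measured as the smaller of its distances in the 2 fractions: it lay 2.95 above the other invading and 2.22 above the other non-invading samples. Bche and Glipr1 followed, and Niban1 was the gene below. In the invading and non-invading fraction, the distance of that replicate from the others was 0.58 and 0.59 for Igfbp5, -0.62 and -0.94 for Igfbp7 and -0.62 and -0.25 for Igfbp6. It was -1.06 and -0.84 for Grb10, an imprinted adaptor that binds IGF1R and the insulin receptor. Results at 96 hours are therefore given with this replicate and without it in both fractions; leaving it out was chosen after its values were seen.

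**Figure D1:**
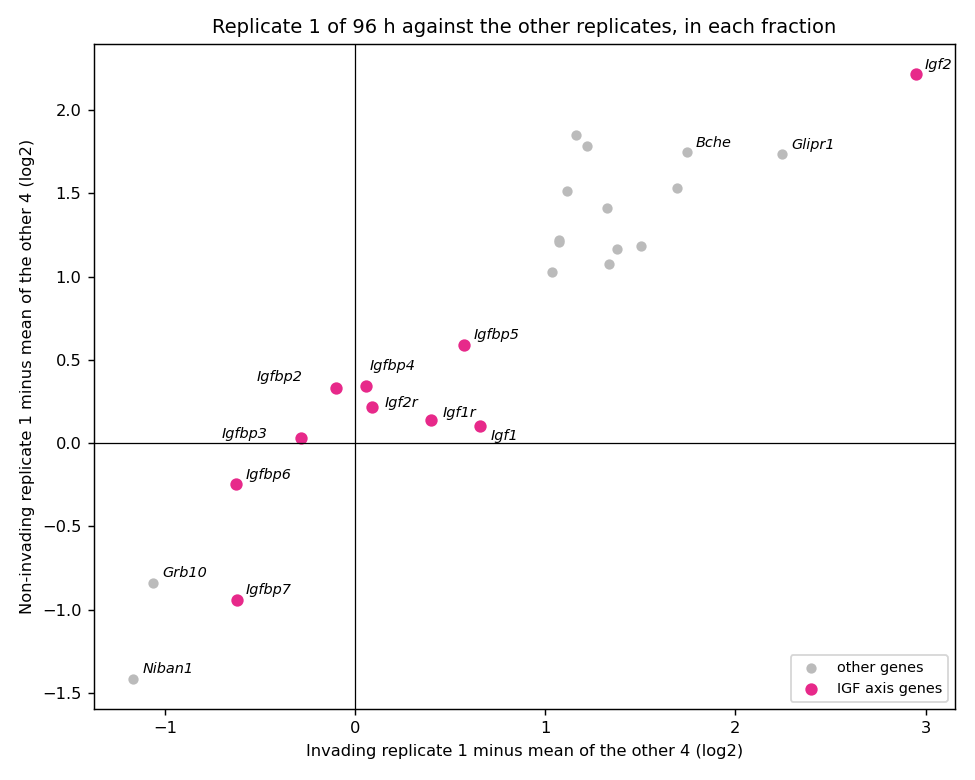
Distance of replicate 1 of 96 hours from the mean of the other 4 replicates (log2 units), in the invading fraction on the horizontal axis and in the non-invading fraction on the vertical axis, for the 10 IGF axis genes, Grb10 and the 15 genes beyond 1 log2 unit in both, Igf2 among them. Igf2 sits at 2.95 and 2.22, farther out than any other gene plotted, and Igfbp7 sits on the opposite side at -0.62 and -0.94.

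Igf1, the ligand that chose the group, had less signal in the invading fraction at both times. At 72 hours it was 7.80, 7.87, 8.36 and 8.72 in the invading samples and 9.46, 9.53, 9.42 and 9.64 in the non-invading samples. At 96 hours it was 9.06, 8.56, 8.34, 8.38 and 8.33 in the invading and 9.91, 10.12, 9.56, 9.51 and 10.03 in the non-invading samples. No invading sample reached the lowest non-invading sample of its time, as for 12.3% of all genes at 72 hours and 8.8% at 96 hours. The means were 8.19 ± 0.43 against 9.51 ± 0.0992 (SD, n = 4) and 8.53 ± 0.31 against 9.83 ± 0.28 (SD, n = 5). The differences, -1.33 ± 0.19 (SE) and -1.30 ± 0.16, correspond to 0.399 and 0.407 times the non-invading signal. These values chose the group and are a description only. As RNA was measured in bulk, fewer cells expressing a gene and less RNA per cell cannot be told apart. The invading samples of 72 hours varied more among themselves than the non-invading samples of that time.

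Ordered by mean, Igf1 was highest in the non-invading samples of 96 hours, followed by those of 72 hours, then the invading samples of 96 and of 72 hours. Only the step between the fractions separated neighbouring groups without overlap. From 72 to 96 hours the difference in Igf1 was 0.34 (SE 0.19, limma adjusted p = 0.201) in the invading and 0.31 (SE 0.19, limma adjusted p = 0.269) in the non-invading fraction, neither of which passed the test at an adjusted p of 0.10. The invading value depended on 1 sample and became 0.52 with a limma adjusted p of 0.0474 without replicate 4 of 72 hours.

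A promoter window of Igf1 is shown with those of Igf1r and Igfbp7 because Igf1 and Igf1r, a ligand and its receptor, both had less signal in the invading fraction and Igfbp7 was higher at 96 hours. Each run holds the 250 bases before a RefSeq transcript start (GRCm38.p6), 5′ to 3′ on the gene's strand, and capitals mark matches to a searched motif. For Igf1r and Igfbp7 that start is the first base of the RefSeq gene. For Igf1 it lies 2846 bases inside the gene, so the Igf1 run is within the gene, and the sequence before its outermost start is not shown.
Igf1, chr10:87860861-87861110, plus strand: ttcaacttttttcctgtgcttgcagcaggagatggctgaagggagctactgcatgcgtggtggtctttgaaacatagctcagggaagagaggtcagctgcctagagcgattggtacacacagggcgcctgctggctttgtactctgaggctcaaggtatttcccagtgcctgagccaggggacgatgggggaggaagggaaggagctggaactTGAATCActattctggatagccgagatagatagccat
Igf1r, chr7:67952007-67952256, plus strand: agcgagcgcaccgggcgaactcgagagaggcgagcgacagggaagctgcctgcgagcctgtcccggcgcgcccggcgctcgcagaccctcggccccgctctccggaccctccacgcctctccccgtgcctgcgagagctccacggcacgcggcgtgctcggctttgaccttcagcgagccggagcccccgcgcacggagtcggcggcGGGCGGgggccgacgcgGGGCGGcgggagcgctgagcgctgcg
Igfbp7, chr5:77408046-77408295, minus strand: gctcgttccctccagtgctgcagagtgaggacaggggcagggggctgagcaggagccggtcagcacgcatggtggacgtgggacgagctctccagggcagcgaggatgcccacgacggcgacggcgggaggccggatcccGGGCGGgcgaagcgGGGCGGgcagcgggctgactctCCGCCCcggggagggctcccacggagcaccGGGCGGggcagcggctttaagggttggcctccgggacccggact
The motifs, searched on both strands, were the GC box GGGCGG, the TATA box TATAAA, a FOXO motif TGTTTAC and an AP-1 motif TGANTCA, in which N is any base. Over 32851 windows of 300 bases (250 before and 50 after a start) they were present in 35.7%, 13.6%, 3.65% and 7.81% of windows. All 10 IGF axis genes had a window, Igf2 with 4 and Igfbp2 with 2 starts. The Igf1 window held 1 AP-1 match and 6 CpG dinucleotides, and 56.4% of windows held at least as many. The Igf1r window held 2 GC boxes and 48 CpG, a number reached in 1.22% of windows, and that of Igfbp7 held 4 GC boxes and 33 CpG, reached in 8.56%. No printed match overlapped another, and none of the windows of the 10 genes held the FOXO motif. The matches are descriptions of letters in these windows and not sites of binding.

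Of the 9 genes other than Igf1, 3 passed the test between fractions at 72 hours: Igfbp4 was higher, and Igf2 and Igf1r were lower. At 96 hours Igfbp6 and Igfbp7 were higher and Igf1r was lower, and without replicate 1 Igfbp3 and Igf2 passed as well, which made 5 of 9. Among all genes, 26.5% passed at 72 hours (13% higher and 13.5% lower) and 31.4% at 96 hours (16.7% higher and 14.7% lower), and nothing is read from the members' counts beside these shares. The split of all genes moved with the scaling: 2590 were higher and 2700 lower at 72 hours, against 5030 and 1865 with every array centred on its median, and 3322 and 2933 at 96 hours, against 9120 and 1579. Centring raised the median log2 ratio over all genes from 0.04 to 0.12 at 72 hours and from 0.02 to 0.14 at 96 hours. The directions of Igf2, Igf1r, Igfbp4, Igfbp6 and Igfbp7 at the times at which they passed were the same under each scaling tried.

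**Figure D2:**
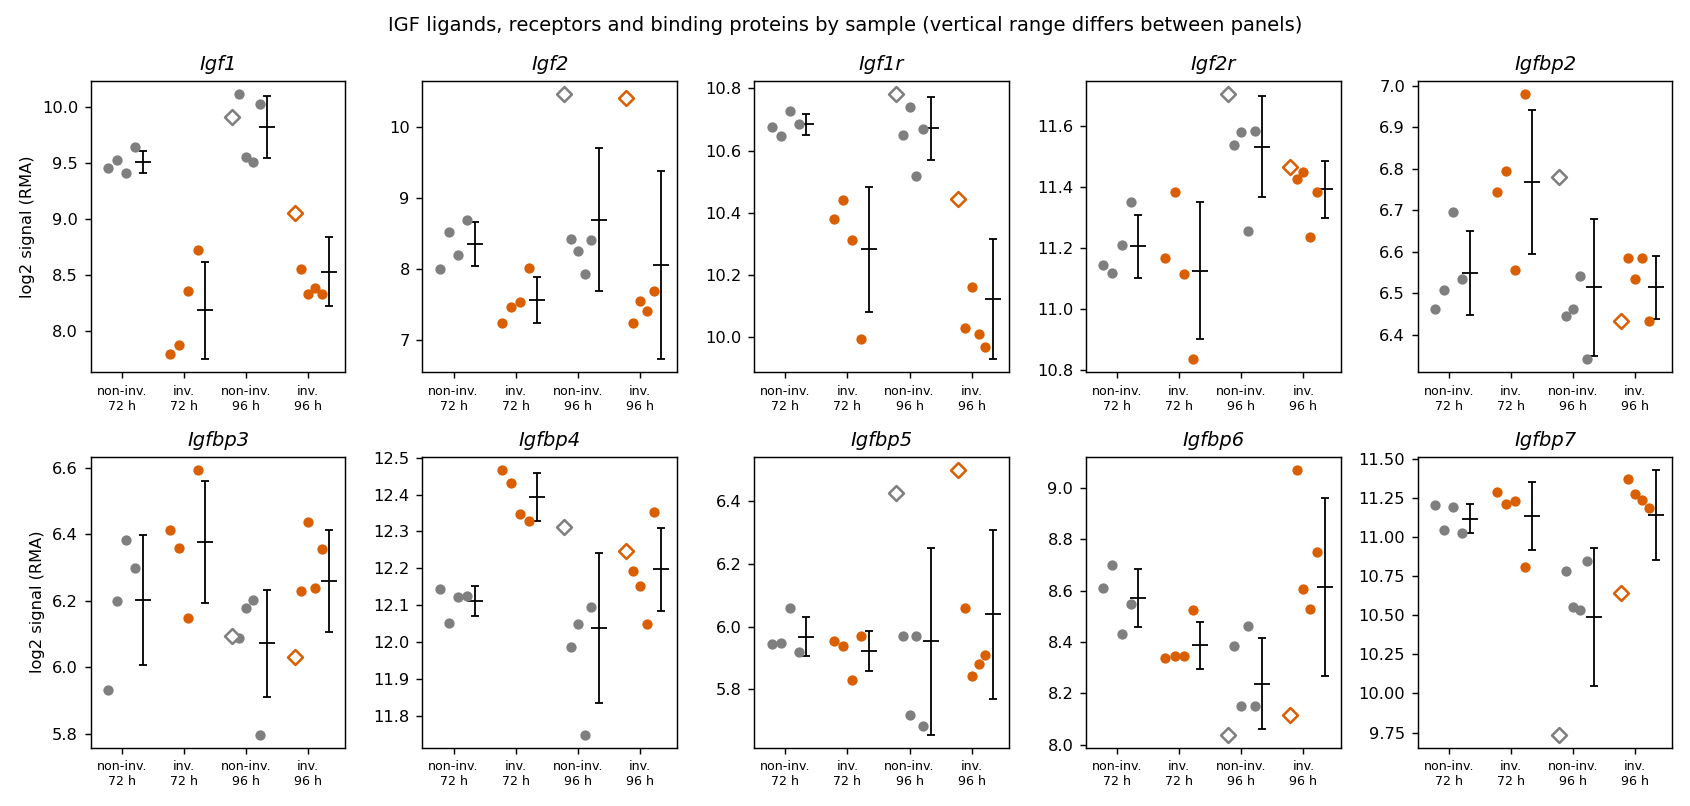
Log2 signal of the 10 IGF axis genes in every sample, by fraction and time, with non-invading samples in grey, invading samples in orange, replicate 1 of 96 hours as open diamonds, and bars for the mean and SD of each group. Igf1 and Igf1r separate the fractions at both times, as do 12.3% (72 hours) and 8.8% (96 hours) of all genes in this direction. For Igf2 both diamonds lie above all other samples, at 10.42 and 10.47.

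Igf2, the fetal growth ligand expressed from the paternal allele, was lower in the invading fraction at 72 hours. Its signal was 7.24, 7.47, 7.54 and 8.01 in the invading and 8.001, 8.52, 8.20 and 8.69 in the non-invading samples. The highest invading sample just overlapped the lowest non-invading sample. The difference was -0.79 (SE 0.19, limma adjusted p = 0.0188). When the 18 samples of both times were fitted together, so that the spread of Igf2 at 96 hours entered the error, the adjusted p at 72 hours became 0.361.

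At 96 hours Igf2 was 10.42, 7.24, 7.54, 7.40 and 7.69 in the invading and 10.47, 8.42, 8.25, 7.92 and 8.40 in the non-invading samples. Replicate 1 was the highest sample of each fraction by more than 2 log2 units. With all samples the difference was -0.63 (SE 0.64, 95% interval -2.03 to 0.76, limma adjusted p = 0.507) and did not pass. With a block for the replicate number, the same difference had an SE of 0.15 and passed (limma adjusted p = 0.0191). The labels do not say that equal numbers share an origin. Without replicate 1 in both fractions the difference was -0.78 (SE 0.13, limma adjusted p = 0.00255), in a test that 31.5% of all genes passed. The invading samples then lay between 7.24 and 7.69 and the non-invading samples between 7.92 and 8.42. The share of all genes without overlap was not counted for this set of samples, so nothing is read from these ranges. Without only the invading replicate 1 the difference was -1.22 (limma adjusted p = 0.060).

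Igf1r, the signalling receptor, was at both times lower in the invading cells. At 72 hours it was 10.38, 10.44, 10.31 and 9.99 in the invading and 10.68, 10.65, 10.73 and 10.69 in the non-invading samples. At 96 hours it was 10.44, 10.03, 10.16, 10.01 and 9.97 in the invading and 10.78, 10.65, 10.74, 10.52 and 10.67 in the non-invading samples. Every invading sample lay below every non-invading sample of its time, as was the case for 12.3% of all genes at 72 hours and 8.8% at 96 hours. The differences were -0.40 (SE 0.097, limma adjusted p = 0.0197) and -0.55 (SE 0.092, limma adjusted p = 0.00133). Without replicate 1 of 96 hours the later difference was -0.60 (limma adjusted p = 0.000407). By mean, the order was non-invading at 72 and 96 hours, then invading at 72 and 96 hours, and only the step between the fractions was free of overlap.

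Igf2r, the clearance and sorting receptor, did not pass between fractions. At 72 hours it was 11.17, 11.38, 11.12 and 10.84 in the invading and 11.15, 11.12, 11.21 and 11.35 in the non-invading samples, with a difference of -0.08 (SE 0.11, 95% interval -0.33 to 0.17, limma adjusted p = 0.667). At 96 hours it was 11.47, 11.43, 11.45, 11.24 and 11.39 in the invading and 11.70, 11.54, 11.58, 11.26 and 11.58 in the non-invading samples, with a difference of -0.14 (SE 0.082, 95% interval -0.32 to 0.04, limma adjusted p = 0.238). The groups overlapped at both times. Without the non-invading replicate 4 of 96 hours, the lowest of its group, the later difference was -0.21 and passed (limma adjusted p = 0.034). It also passed with a block for the replicate number (-0.14, limma adjusted p = 0.0941).

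**Figure D3:**
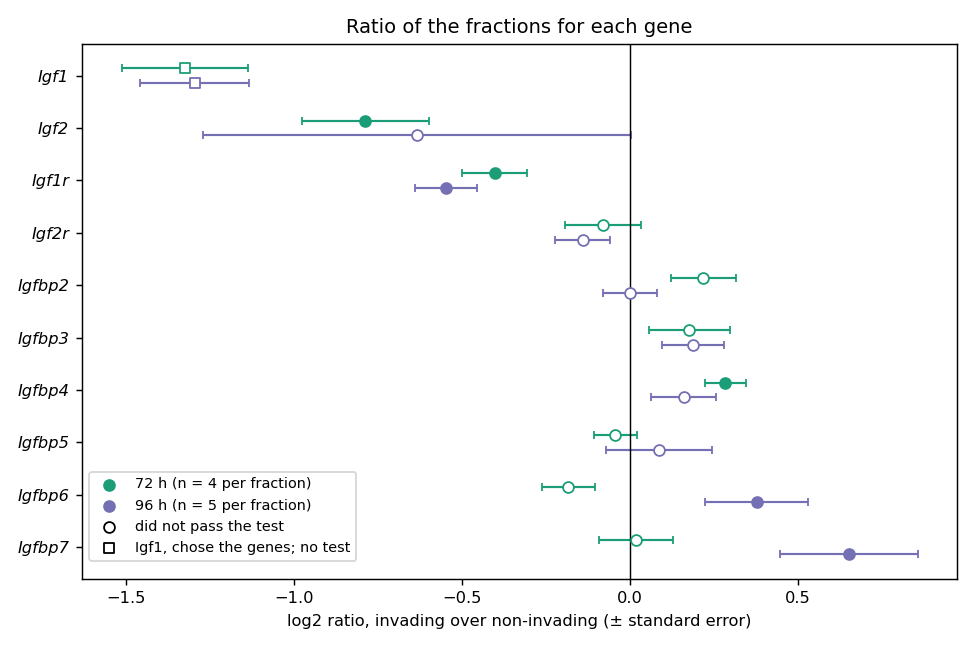
Log2 ratio of the invading over the non-invading fraction for each gene at 72 hours (n = 4 each) and 96 hours (n = 5 each), with bars for the standard error, filled where the gene passed the test and open where it did not, and squares for Igf1, which was not tested. Igf1r lies below 0 at both times, and Igfbp7 lies at 0.02 at 72 hours and at 0.65 at 96 hours.

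Among the binding proteins, Igfbp4, which inhibits IGF action and is cut by the pappalysins, was higher in the invading fraction at 72 hours. Its signal was 12.47, 12.43, 12.35 and 12.33 in the invading and 12.14, 12.05, 12.12 and 12.13 in the non-invading samples, and the groups did not overlap, as for 12.5% of all genes in this direction. The difference was 0.28 (SE 0.061, limma adjusted p = 0.0125). At 96 hours it was 12.25, 12.19, 12.15, 12.05 and 12.35 in the invading and 12.31, 11.99, 12.05, 11.75 and 12.09 in the non-invading samples, the groups overlapped, and the difference of 0.16 did not pass (SE 0.097, limma adjusted p = 0.255). It passed without the non-invading replicate 1 alone (0.23, limma adjusted p = 0.0783) but not without replicate 1 of both fractions (0.22, limma adjusted p = 0.122), and it passed with every array centred on its median (0.28, limma adjusted p = 0.0401).

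Igfbp7, a secreted protein of low affinity for IGFs that also binds insulin, was higher in the invading fraction at 96 hours. Its signal was 10.64, 11.37, 11.27, 11.23 and 11.18 in the invading and 9.74, 10.78, 10.55, 10.53 and 10.85 in the non-invading samples. The invading replicate 1 alone fell into the range of the non-invading samples. The difference was 0.65 (SE 0.20, limma adjusted p = 0.0351), or 1.57 times the signal. Without replicate 1 of both fractions it was 0.59 (SE 0.086, limma adjusted p = 0.00132), in a test that 31.5% of all genes passed. At 72 hours Igfbp7 was 11.29, 11.21, 11.23 and 10.81 in the invading and 11.20, 11.04, 11.19 and 11.03 in the non-invading samples, and its difference was 0.02 (SE 0.11, limma adjusted p = 0.932).

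Igfbp6, which prefers IGF2 over IGF1, was higher in the invading fraction at 96 hours by a margin close to the threshold. Its signal was 8.12, 9.07, 8.61, 8.53 and 8.75 in the invading and 8.04, 8.38, 8.15, 8.46 and 8.15 in the non-invading samples, and the groups overlapped through the invading replicate 1. The difference was 0.38 (SE 0.15, limma adjusted p = 0.0934). It no longer passed when any one of the invading replicates 2 to 5 or the non-invading replicates 1, 2, 3 or 5 was left out (0.26 to 0.41, limma adjusted p from 0.103 to 0.186), whereas without replicate 1 of both fractions it was 0.45 (limma adjusted p = 0.0267). At 72 hours it was 8.34, 8.34, 8.35 and 8.52 in the invading and 8.61, 8.70, 8.43 and 8.55 in the non-invading samples, with a difference of -0.18 (SE 0.079, limma adjusted p = 0.135). That difference passed without the invading replicate 4 or the non-invading replicate 3 (limma adjusted p = 0.083 and 0.0947, -0.23 in both) and after the filter on low signal (limma adjusted p = 0.0897).

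The 3 other binding proteins did not pass between fractions at either time. Igfbp2, which is often raised in growing and injured tissue, lay between 6.56 and 6.98 in invading and between 6.46 and 6.70 in non-invading samples of 72 hours, a difference of 0.22 (limma adjusted p = 0.150) that passed without the invading replicate 3 (0.29, limma adjusted p = 0.0574). It also passed with quantile normalization repeated (0.31, limma adjusted p = 0.0398), with every array centred on its median (0.30, limma adjusted p = 0.0457) and in 1 fit over all 18 samples (limma adjusted p = 0.099). At 96 hours the difference of Igfbp2 was -0.0004 (limma adjusted p = 0.998). Igfbp3, the main carrier of IGFs in serum, had differences of 0.18 and 0.19 (limma adjusted p = 0.349 and 0.167), and at 96 hours it passed without the invading replicate 1 (0.24, limma adjusted p = 0.0644) or without replicate 1 of both fractions (0.25, limma adjusted p = 0.091). With every array centred on its median or quantile normalization repeated it passed as well (0.31 and 0.30, limma adjusted p = 0.0229 and 0.0243). Igfbp5, which binds to extracellular matrix, had differences of -0.04 and 0.09 (limma adjusted p = 0.673 and 0.736). Igfbp3 ran from 5.80 to 6.59 and Igfbp5 from 5.68 to 6.50 over all 18 samples, and neither reached a linear signal of 100 in any of them.

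The comparison of 96 with 72 hours within a fraction did not enter the choice of the genes. In the invading fraction 2 of 10 genes passed, against 34.8% of all genes (18.2% higher, 16.7% lower), with Igf2r higher by 0.27 (SE 0.099, limma adjusted p = 0.06) and Igfbp2 lower, at -0.25 (SE 0.089, limma adjusted p = 0.0453). Igf2r no longer passed without the invading replicate 4 of 72 hours (0.17, limma adjusted p = 0.231) or without the invading replicates 1, 2 or 3 of 96 hours in turn (limma adjusted p = 0.116, 0.1001 and 0.108), nor with quantile normalization repeated (0.17, limma adjusted p = 0.278). Igfbp2 no longer passed without that sample of 72 hours (-0.18, limma adjusted p = 0.171) or with a block matching equal replicate numbers of the times (-0.23, limma adjusted p = 0.121). The invading samples of 96 hours had an Igfbp2 signal of 6.43 to 6.585, near the array medians (6.46 to 6.65). Without replicate 1 of 96 hours in both fractions 4 genes passed, against 30.5% of all genes: Igfbp6 was higher by 0.35 (limma adjusted p = 0.0303), and Igf1r, Igfbp2 and Igfbp4 were lower, at -0.24, -0.23 and -0.21 (limma adjusted p = 0.057, 0.0553 and 0.0713). Igf1r and Igfbp6 also passed without the invading replicate 1 alone (-0.24 and 0.35, limma adjusted p = 0.0557 and 0.0338), and Igf1r passed without the invading replicate 4 of 72 hours (-0.26, limma adjusted p = 0.0583). With all samples the difference of Igfbp4 was -0.20 (limma adjusted p = 0.110), and it passed in 10 of 28 alternatives. Among them were the filter on low signal and quantile normalization repeated (limma adjusted p = 0.0744 and 0.0785).

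In the non-invading fraction 3 of 10 genes passed between the times, against 27.6% of all genes (15.4% higher, 12.2% lower). Igfbp7 was lower at 96 hours, with a difference of -0.63 (SE 0.19, limma adjusted p = 0.0248), and all 5 samples of 96 hours lay below the 4 of 72 hours, as for 7.8% of all genes. Igf2r was higher by 0.33 (SE 0.099, limma adjusted p = 0.0273), and Igfbp6 was lower, at -0.33 (SE 0.14, limma adjusted p = 0.0994). The call of Igfbp6 was lost without any one of the non-invading samples of 72 hours (-0.29 to -0.38, limma adjusted p from 0.101 to 0.228) and without the non-invading replicates 1, 3 or 5 of 96 hours (-0.29 to -0.31, limma adjusted p from 0.170 to 0.195). Without replicate 1 of 96 hours these were -0.44, 0.28 and -0.29 (limma adjusted p = 0.007, 0.0718 and 0.0818), and 26.3% of all genes passed. In the invading fraction Igfbp7 had a difference of 0.007 (limma adjusted p = 0.985).

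The ratio between fractions was then compared between the times, to see whether any gene differed more at one of them. None of the 10 genes passed (limma, all 18 samples), as against 0.015% of all genes, and 2 had an unadjusted p under 0.05. The ratio of Igfbp7 was 0.63 larger at 96 hours (SE 0.26, limma unadjusted p = 0.028, adjusted p = 0.517), and that of Igfbp6 was 0.56 larger (SE 0.19, limma unadjusted p = 0.01, adjusted p = 0.409). Without replicate 1 of 96 hours they were 0.57 and 0.64 larger (limma adjusted p = 0.295 and 0.277), where 0.00502% of all genes passed. A difference of these ratios between the times was thus not shown for any of the 10 genes.

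Over the 18 samples Igf1 and Igf1r had a Pearson's r of 0.74, Igf2 and Igfbp7 of -0.78, Igf2 and Igfbp5 of 0.72, and Igfbp6 and Igfbp7 of 0.64. These values describe samples that share 4 groups and, at 96 hours, a replicate that stood apart. After the mean of each group was taken away, Igf1 and Igf1r had an r of -0.0032, Igf2 and Igfbp7 of -0.87, and Igf2 and Igfbp5 of 0.82. Replicate 1 of 96 hours was still among these samples and lies far from its group means in Igf2, Igfbp5 and Igfbp7. The r of these pairs without it was not computed, so no shared variation of these genes is read from them.

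The genes whose signal was most like that of Igf1 over the 18 samples were Sema3c, a secreted semaphorin (r = 0.97), Aste1 (r = 0.96), Cavin2, a caveolar coat protein (r = 0.96), Bmp2k (r = 0.95) and Magi3 (r = 0.95). Their differences between fractions ran from -0.33 to -1.71 at 72 hours and from -0.29 to -2.01 at 96 hours. As these genes were picked by likeness over samples that Igf1 separates by fraction, lower values in the invading fraction follow from the choice. Their r with Igf1 after the group means were taken away was not computed. The genes most like Igf1r were Kmt2a, a histone methyltransferase (r = 0.98), Cdk12, a kinase of RNA polymerase II (r = 0.96), and Fat1, a giant cadherin (r = 0.96). Those most like Igf2 were Eya4 (r = 0.94), Bche (r = 0.86) and Nova1 (r = 0.85), all of which were also high in replicate 1 of 96 hours. Without that replicate their r with Igf2 was 0.73, 0.32 and 0.63.

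The pathway around these genes was described by 7 lists with 86 measured genes and none of the 10 above. Between fractions 39 of the 86 passed at 72 hours (23 higher, 16 lower) and 40 at 96 hours (20 higher, 20 lower; 47 without replicate 1), beside 26.5% and 31.4% of all genes. The lists were chosen with earlier results of these data known, and their counts are descriptions. By direction, 13% of all genes were higher and 13.5% lower at 72 hours, and 16.7% and 14.7% at 96 hours. The counts of each list below stand beside these shares and are not read as a shift of that list. With every array centred on its median the counts became 29 higher with 11 lower (72 hours) and 41 higher with 10 lower (96 hours), while no gene named from the lists changed direction.

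**Figure D4:**
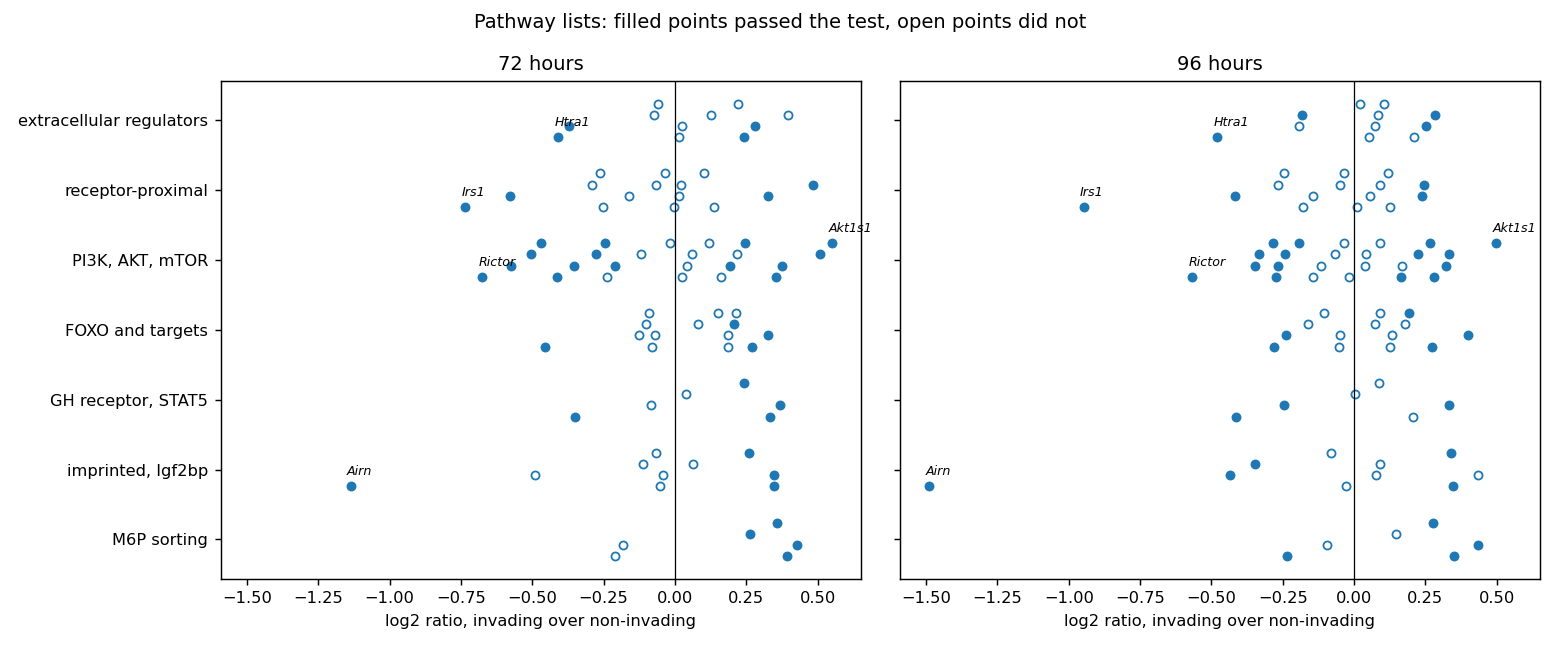
Log2 ratio of the invading over the non-invading fraction for the measured genes of 7 lists at 72 hours (left) and 96 hours (right), each point a gene, filled where it passed the test. Airn lies farthest from 0 at -1.14 and -1.49, followed among the lower genes by Irs1 at -0.74 and -0.95.

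Next to the receptor, 4 of 15 genes passed at each time, 2 higher and 2 lower. Irs1, the insulin receptor substrate that couples IGF1R to PI3K, was 9.38, 9.02, 9.50 and 9.69 in the invading and 9.99, 10.09, 10.28 and 10.18 in the non-invading samples of 72 hours. At 96 hours it was 9.47, 9.28, 9.45, 9.13 and 9.09 in the invading and 10.17, 10.41, 10.33, 9.92 and 10.33 in the non-invading samples. The fractions did not overlap at either time, as for 12.3% (72 hours) and 8.8% (96 hours) of all genes in this direction. The differences were -0.74 (SE 0.13, limma adjusted p = 0.00606) and -0.95 (SE 0.11, limma adjusted p = 0.000151). Sos2, an exchange factor that activates RAS, was lower, with differences of -0.58 and -0.42 (limma adjusted p = 0.00113 and 0.0084), and the adaptor Shc1 was higher by 0.48 and 0.25 (limma adjusted p = 0.00266 and 0.00348).

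In the PI3K, AKT and mTOR list, 6 of 24 measured genes were higher and 9 lower at 72 hours, and 7 were higher and 8 lower at 96 hours. Rictor, the defining subunit of mTOR complex 2, was lower, with differences of -0.68 and -0.57 (limma adjusted p = 0.00588 and 0.00158). Rheb, the GTPase that activates mTOR complex 1, was lower at 72 hours, at -0.57 (limma adjusted p = 0.0045), and had a difference of -0.15 at 96 hours (limma adjusted p = 0.169), which passed without replicate 1 of both fractions (-0.21, limma adjusted p = 0.0331). Akt1s1, an AKT substrate that restrains mTOR complex 1, was higher by 0.55 and 0.50 (limma adjusted p = 0.00426 and 0.000238). The list therefore held genes of both directions at each time, with medians of 0.0029 and -0.026 beside 0.04 and 0.02 over all genes.

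Among FOXO factors and genes they induce, which AKT signalling holds down, 3 of 14 were higher and 1 lower at 72 hours, and 3 were higher and 2 lower at 96 hours. Cited2, a transcriptional coregulator, was lower, with differences of -0.45 and -0.28 (limma adjusted p = 0.0433 and 0.00286). Foxo4 was higher by 0.32 and 0.19 (limma adjusted p = 0.00986 and 0.0568), and the later difference did not pass without replicate 1 of both fractions (0.20, limma adjusted p = 0.109) or without the invading replicates 3 or 5 or the non-invading replicate 2 alone (0.16, 0.16 and 0.18, limma adjusted p = 0.133, 0.119 and 0.107). Cited2 at 72 hours did not pass without the non-invading replicate 2 (-0.40, limma adjusted p = 0.101) or with every array centred on its median (-0.37, limma adjusted p = 0.1005). Pdk4, a kinase that shuts off pyruvate dehydrogenase, was higher at 96 hours by 0.40 (limma adjusted p = 0.0154) and had a difference of -0.09 at 72 hours (limma adjusted p = 0.51).

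Growth hormone acts through JAK2 and STAT5 to induce Igf1, and of 6 genes of that route 3 were higher and 1 lower at 72 hours, and 1 was higher and 2 were lower at 96 hours. Jak2 was lower, with differences of -0.35 and -0.25 (limma adjusted p = 0.0378 and 0.0306), and the later one did not pass with every array centred on its median (-0.13, limma adjusted p = 0.190). Of the feedback inhibitors that STAT5 induces, Cish was higher by 0.37 and 0.33 (limma adjusted p = 0.0132 and 0.0062), while Socs2 was lower at 96 hours, at -0.42 (limma adjusted p = 0.0106) and had a difference of -0.08 at 72 hours (limma adjusted p = 0.823). Averaged over all probe sets with its symbol, Socs2 had a difference of -0.17 at 96 hours (limma adjusted p = 0.126).

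Proteases and other extracellular regulators of IGFs had 2 of 11 genes higher and 2 lower at each time. Htra1, a secreted serine protease that can cut binding proteins, was lower, with differences of -0.41 and -0.48 (limma adjusted p = 0.00764 and 0.00133). It did not overlap between fractions, as for 12.3% (72 hours) and 8.8% (96 hours) of all genes in this direction. Stc1, a stanniocalcin, was lower at 72 hours, at -0.37 (limma adjusted p = 0.0883), a call that was lost without any one sample of 72 hours other than the non-invading replicate 4 (-0.28 to -0.41, limma adjusted p from 0.111 to 0.189) and with every array centred on its median or quantile normalization repeated (-0.29 and -0.28, limma adjusted p = 0.183 and 0.191). Pappa2, a pappalysin that cuts binding proteins, was higher at 96 hours by 0.28 (limma adjusted p = 0.0215). It ran from 5.53 to 6.27 over all 18 samples, below every array median and below a linear signal of 100. At 72 hours its difference was 0.22 (limma adjusted p = 0.147) and passed with every array centred on its median (0.30, limma adjusted p = 0.0404), with quantile normalization repeated (0.29, limma adjusted p = 0.0377) and in 1 fit over all 18 samples (limma adjusted p = 0.0946).

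Imprinted growth genes and the Igf2 mRNA-binding proteins had at 72 hours 3 of 10 measured genes higher and 1 lower, and at 96 hours 2 higher and 3 lower. Airn, the antisense noncoding RNA that starts within Igf2r and silences its paternal copy, had the largest difference of any gene named from the lists. It was 8.83, 8.92, 9.22 and 8.80 in the invading and 9.85, 9.56, 10.39 and 10.52 in the non-invading samples of 72 hours. At 96 hours it was 9.19, 9.25, 9.04, 9.07 and 9.15 in the invading and 10.69, 10.76, 10.76, 10.20 and 10.74 in the non-invading samples. The fractions were apart at both times, as for 12.3% (72 hours) and 8.8% (96 hours) of all genes in this direction. The differences of Airn were -1.14 (SE 0.21, limma adjusted p = 0.00575) and -1.49 (SE 0.11, limma adjusted p = 1.46e-05), while the differences of Igf2r were those given above and did not pass. Airn and Igf2r overlap in the genome, and which strand each probe reads was not examined here. Cdkn1c, a growth-restraining inhibitor of cyclin-dependent kinases, was higher by 0.35 at both times (limma adjusted p = 0.016 and 0.0148), and Plagl1, a zinc finger factor of the imprinted network, was lower at 96 hours, at -0.44 (limma adjusted p = 0.0304). Plagl1 had a difference of -0.49 at 72 hours (limma adjusted p = 0.102) that passed without the non-invading replicates 1 or 2 (-0.61 and -0.60, limma adjusted p = 0.0584 and 0.0702), in 1 fit over all 18 samples, after the filter on low signal and over probe sets with 1 symbol only (limma adjusted p = 0.0526, 0.0729 and 0.0511).

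**Figure D5:**
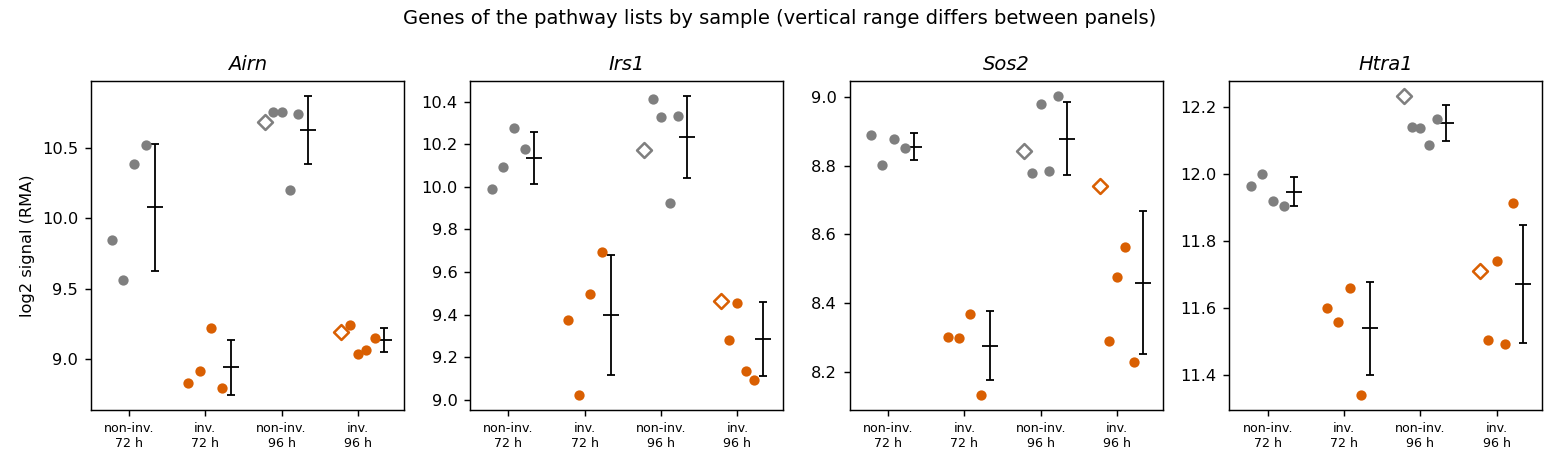
Log2 signal of Airn, Irs1, Sos2 and Htra1 in every sample, by fraction and time, with non-invading samples in grey, invading samples in orange, replicate 1 of 96 hours as open diamonds, and bars for the mean and SD of each group. In each panel every invading sample lies below every non-invading sample of its time, with Airn at 8.80 to 9.25 against 9.56 to 10.76. The same holds for 12.3% of all genes at 72 hours and 8.8% at 96 hours.

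In mannose 6-phosphate sorting, the route that IGF2R serves, 4 of 6 measured genes were higher at 72 hours, and 3 were higher and 1 lower at 96 hours. Among all genes 13% and 16.7% were higher, shares that moved with the scaling, and no set was tested. Gga1 and Gga2, coat adaptors that load these receptors into vesicles, were higher by 0.43 and 0.39 at 72 hours and by 0.44 and 0.35 at 96 hours (limma adjusted p = 0.0139, 0.00476, 0.000232 and 0.00433). Nagpa, the enzyme that uncovers the mannose 6-phosphate tag, was higher by 0.36 and 0.28 (limma adjusted p = 0.0116 and 0.0114). The cation-dependent receptor gene M6pr had no probe set of its own and was not analysed here.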

How the data were processed

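RNA of invading and non-invading MLg 2908 cells was labelled for Affymetrix Mouse Gene 1.0 ST arrays. The deposited values of the authors are log2 signals, background corrected, normalized between arrays and summarized per probe set by RMA (Affymetrix Expression Console 1.2 in the submitters' notes), which draws arrays towards a common distribution. They ran from 2.94 to 14.7 over 35556 probe sets in 18 samples and were used as given. Precision is limited by how many arrays there are.

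Of the probe sets, 21789 carried exactly 1 gene symbol in the platform annotation, 1621 carried several and 12146 were not in it. A gene was read from its brightest probe set with 1 symbol. The tests were made by limma (version 3.58.1, R 4.3.3, lmFit and eBayes), with Benjamini-Hochberg adjustment over all probe sets and a threshold of 0.10, as the study's methods state. Fractions were compared within a time from the samples of that time, and times from all 18 samples in 1 fit. On simulated data 87 of 100 probe sets changed 2-fold and 100 of 100 changed 3-fold were recovered at 72 hours, and 92 and 100 at 96 hours. The simulated noise was independent between samples, and changes below 2-fold were not simulated. With all samples, no IGF axis gene other than Igf1 differed by 2-fold between fractions, so recovery at their sizes was not measured. Same-numbered samples of the fractions deviated together with r between -0.075 and 0.169, not above 0.1 for every pair, and were not treated as pairs.

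The text names all 10 IGF axis genes, up to 3 genes per list with the largest difference among those that passed, and the genes most like Igf1 (5) and like Igf2 and Igf1r (3 each). The members and lists were chosen with earlier results of these data known. Alternatives were another scaling, a filter on low signal, other probe set rules, a robust fit with an intensity trend, a stricter threshold, replicate blocks, other sample sets, and leaving out each sample. Promoter windows were matched by symbol to RefSeq (GRCm38.p6). Figures were drawn with matplotlib.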

Additional observations from a re-analysis of the deposited data

Results flagged for a closer look

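In 7 of 40 groups of 4 or 5 samples, 1 sample lay farther from the rest than Dixon's 95% limit allows, where chance gives about 1 in 20. Igf2 at 96 hours was 10.418 in the invading replicate 1, with 7.69 as the nearest sample, and 10.465 in the non-invading replicate 1, with 8.42 as the nearest. Igfbp7 was low in the same samples, at 10.643 in the invading replicate 1 (nearest 11.183) and 9.738 in the non-invading replicate 1 (nearest 10.532). At 72 hours the invading replicate 4 had an Igfbp7 signal of 10.811 (nearest 11.208) and an Igfbp6 signal of 8.523 (nearest 8.345). Igfbp3 was 5.798 in the non-invading replicate 5 of 96 hours (nearest 6.087).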

How the results depend on the processing

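No result reversed its direction while it was called under any alternative. Of the 9 genes other than Igf1, 3 passed between fractions at 96 hours, and 5 did with every array centred on its median, with a replicate block, or with replicate 1 of both fractions left out. Of the 10 genes, 2 passed between times in the invading fraction, 1 at an adjusted p of 0.05 and 4 with replicate 1 of 96 hours left out. In the non-invading fraction 3 passed between times and 1 did with a replicate block, and of the pathway genes 33 passed there and 11 did with the block. Between times the block matched equal numbers of 72 and 96 hours within 1 fraction, for which no shared origin is stated. A number present at only 1 time then adds nothing to the difference. Between fractions the block matched equal numbers of the same time, and with it Igf2 and Igf2r passed at 96 hours (-0.63 and -0.14, limma adjusted p = 0.0191 and 0.0941). The study used a paired test on array values of some receptors but does not say what paired them, and the labels give the numbers no shared origin. Of the invading samples, 1 of 4 at 72 hours and 4 of 5 at 96 hours correlated best with their own number in the non-invading fraction. Those correlations do not bear on the block between times. The cause of these changes was not tested. Leaving out 1 sample gave 3 to 4 genes between fractions at 72 hours and 2 to 5 at 96 hours, 1 to 3 between times in the invading and 2 to 3 in the non-invading fraction, and 0 to 0 for the difference between times. For the pathway genes the ranges were 32 to 39, 35 to 46, 29 to 38, 19 to 33 and 0 to 0, the lowest count between times in the non-invading fraction (19) being without replicate 2 of 72 hours. Igf1r passed in all 17 alternatives at 72 hours and all 20 at 96 hours, Igfbp4 in all 17 at 72 hours, Igfbp7 in all 20 at 96 hours and Igf2 in 16 of 17 at 72 hours, while Igfbp6 passed in 11 of 20 at 96 hours and in 11 of 28 between times in the non-invading fraction. Igfbp3 and Igfbp5 were removed by the filter on low signal and have no value there.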
